A study of Homo sapiens with 6 samples.

Results

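The 10 genes examined here are ones that B cells use to stimulate or restrain T cells and phagocytes: CD80, CD86, CD83, CD274, PDCD1LG2, ICOSLG, CD48, CD47, TNFRSF14 and LGALS9. They were chosen by name, and a table row counted for a gene when its list of gene names held that gene. All 10 were listed in each of the 6 library tables, with 1 row per library, among 45367 gene symbols kept for analysis. The measurements are messenger RNA levels in 2 cultured human B cell lymphoma lines, with 3 libraries each, which the design text calls biological replicates. LY19Y646F constitutively expresses the mutant EZH2-Y646F from a CMV promoter. LY19WT is labelled as EZH2 wild type. EZH2 is the methyltransferase of Polycomb repressive complex PRC2, and the Y646F change recurs in germinal centre lymphomas. Both lines were untreated and at passages 10 to 15. The labels do not say whether LY19Y646F is a clone, whether its own EZH2 copies are intact, or whether LY19WT carries an empty vector.

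A T cell that binds antigen also reads further ligands on the presenting cell. CD80 and CD86 bind the activating receptor CD28 and the inhibitory receptor CTLA4, ICOSLG binds ICOS on helper T cells, and CD83 marks activated B cells and dendritic cells. CD274 (PD-L1) and PDCD1LG2 (PD-L2) bind the inhibitory receptor PD-1, TNFRSF14 (HVEM) binds BTLA and CD160, and LGALS9 encodes galectin-9, a lectin reported to bind TIM-3. CD48 binds CD2 and CD244, and CD47 binds SIRPA on macrophages and inhibits phagocytosis. In germinal centres CD86 and ICOSLG take part in the exchange with follicular helper T cells, and loss of TNFRSF14 or CD58 is recurrent in lymphoma.

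Marker genes were read beside the labels, which were used as given. B lineage genes averaged at least 0.5 FPKM (fragments per kilobase of transcript, scaled to the mapped total) for 7 of 7 markers read in LY19Y646F and 6 of 7 in LY19WT, where MS4A1 (CD20) stood near 0. Precursor B cell markers summed to between 1.76 and 5.73 FPKM in the LY19Y646F libraries and between 781 and 2345 FPKM in the LY19WT libraries. T and NK cell markers summed to 2.35 to 2.58 FPKM in LY19Y646F and 28.7 to 30.5 FPKM in LY19WT. Nearly all of the LY19WT amount was CD247, the zeta chain of the T cell receptor complex, at 28.95 ± 0.795 FPKM (SD, n = 3), while CD3D, CD3E and CD3G were listed at 0 there. Myeloid and dendritic cell markers summed to 10.7 to 12.8 FPKM in LY19Y646F, mostly CD1C, against 11.7 to 14.3 FPKM in LY19WT, mostly LYZ. Stromal and epithelial markers stayed under 0.2 FPKM in sum. The lines thus differed in precursor B cell markers and MS4A1, and not only in the EZH2 label. A contrast of the lines is therefore not one of the EZH2 allele alone. These differences go with every comparison below, and their part in the results was not tested. In bulk libraries, fewer cells that express a gene and less RNA per cell cannot be told apart.

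Promoter sequence is shown for the 5 genes with a window that held the kappa-B consensus or the repeat described below, motifs of factors known to switch such ligands on. RefSeq windows on GRCh38.p14, 250 bases before to 50 after a transcript start, were at hand for 9 of the 10 genes, in 11 windows. CD86 and CD83, both higher in LY19Y646F, and TNFRSF14, which was not called, each have a window with the kappa-B consensus, the sequence bound by NF-kB, which 11.3% of all 35116 windows hold. The CD274 window and the LGALS9 window hold GAAA, any 2 bases and GAAA again, a repeat bound by interferon regulatory factors, which 3.57% of all windows hold. Capitals mark the matches, on either strand, written 5′ to 3′ along the gene.
CD86, second start, chr3:122077534-122077833, plus strand: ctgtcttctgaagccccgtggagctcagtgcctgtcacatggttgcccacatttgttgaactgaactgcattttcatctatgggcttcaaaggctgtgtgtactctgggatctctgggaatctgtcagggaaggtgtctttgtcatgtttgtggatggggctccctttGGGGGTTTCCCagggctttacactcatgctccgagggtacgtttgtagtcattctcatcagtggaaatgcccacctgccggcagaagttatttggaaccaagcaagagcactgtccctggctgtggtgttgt
CD83, second start, chr6:14117522-14117821, plus strand: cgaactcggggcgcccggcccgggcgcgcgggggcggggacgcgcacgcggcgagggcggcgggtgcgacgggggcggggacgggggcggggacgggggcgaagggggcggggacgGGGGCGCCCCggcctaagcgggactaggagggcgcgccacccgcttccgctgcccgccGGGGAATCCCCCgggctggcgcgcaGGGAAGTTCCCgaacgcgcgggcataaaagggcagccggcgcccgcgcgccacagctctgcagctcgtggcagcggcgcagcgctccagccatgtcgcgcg
TNFRSF14, chr1:2556121-2556420, plus strand: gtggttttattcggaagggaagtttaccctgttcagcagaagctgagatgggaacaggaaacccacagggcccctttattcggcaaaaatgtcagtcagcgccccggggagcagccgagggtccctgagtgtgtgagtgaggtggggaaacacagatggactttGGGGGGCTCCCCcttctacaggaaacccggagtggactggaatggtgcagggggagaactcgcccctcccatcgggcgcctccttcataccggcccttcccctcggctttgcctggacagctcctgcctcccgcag
CD274, chr9:5450292-5450591, plus strand: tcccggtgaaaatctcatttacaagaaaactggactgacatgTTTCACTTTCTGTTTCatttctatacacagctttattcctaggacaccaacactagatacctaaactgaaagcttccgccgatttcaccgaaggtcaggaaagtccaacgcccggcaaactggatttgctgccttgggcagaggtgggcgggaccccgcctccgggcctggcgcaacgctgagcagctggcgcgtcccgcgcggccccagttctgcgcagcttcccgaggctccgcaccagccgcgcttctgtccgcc
LGALS9, chr17:27630938-27631237, plus strand: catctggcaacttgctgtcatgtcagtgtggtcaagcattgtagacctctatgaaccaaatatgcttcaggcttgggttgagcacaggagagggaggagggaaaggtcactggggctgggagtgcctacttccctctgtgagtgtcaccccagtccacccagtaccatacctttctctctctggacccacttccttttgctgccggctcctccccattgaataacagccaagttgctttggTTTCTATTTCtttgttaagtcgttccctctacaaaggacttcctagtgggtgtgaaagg
The CD86 match runs from base -82 to -72, where 1 is the first transcribed base, and consists of overlapping matches. CD83 has 3 separate stretches, at -134 to -125, at -76 to -65 and at -51 to -41, in a window that is 81.3% G and C. The CD274 stretch, at -208 to -193, is a pair of overlapping repeats. The TNFRSF14 stretch, at -86 to -75, is made of 3 overlapping matches. GGAA, any 2 bases and GAAA, a composite motif of ETS and IRF factors, was also searched on both strands, and can overlap the other repeat. It is in the first window of CD83 and in 2.82% of all windows. The other windows of the 10 genes hold none of these letters. The libraries do not show which start was used, and a match is only a stretch of letters.

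Of the 10 genes, 5 could be tested in the fit over all genes: CD86, CD83, CD48, CD47 and TNFRSF14. LGALS9 and ICOSLG had rows that also named other protein-coding genes, and CD80, CD274 and PDCD1LG2 averaged under 0.5 FPKM. Of the 5 tested, 3 were higher in LY19Y646F, 1 was lower and TNFRSF14 did not pass. Over all 10163 genes in the same limma fit (Benjamini-Hochberg, threshold 0.05), 33.8% were called, 17.0% higher and 16.8% lower. The members that could be tested are those with enough RNA in at least 1 line, so their count is set beside that background only. The median log2 change of the 5 was 1.26, against -0.03 for all tested genes. With merged rows counted for every gene they name, LGALS9 and ICOSLG also have a value. Of these 7 genes 3 were then higher and 2 lower, and their median turned to -0.58, against 0.00 for all genes of that fit.

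CD86 had the widest contrast. It measured 11.3, 14.1 and 16.1 FPKM in the LY19Y646F libraries and 0.111, 0.0240 and 0.0560 FPKM in the LY19WT libraries. The lines were far apart, and the Cufflinks interval of each LY19WT value began at 0 and ended at 0.344 FPKM or lower. It averaged 13.9 ± 2.39 FPKM in LY19Y646F and 0.0636 ± 0.0440 FPKM in LY19WT (SD, n = 3 each), a ratio of 218 that rests on a value near 0. On the log2(FPKM + 1) scale, which understates changes of low genes, the difference was 3.79 (SE 0.16, limma adjusted p of 5.8e-05), and 6.43 with a pseudocount of 0.1. Only 2.66% of tested genes had a larger absolute change. The authors' deposited table, which pools each line into 1 value, gave CD86 16.0 FPKM in LY19Y646F and 0.0548 FPKM in LY19WT. CD86 lies on hg19 chromosome 3 from 121774213 to 121839983.

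CD80, the other ligand of CD28 and CTLA4, lies 2.5 Mb away at 119243140 to 119278449. It was listed at 0 with a good status in all 6 library tables. The authors' deposited table nevertheless gave it 4.36 FPKM in LY19Y646F and 0.965 FPKM in LY19WT, a log2 fold change of 2.17. Other genes had this disagreement. Of 3165 protein-coding symbols listed at 0 in every library, 485 have a row in the authors' deposited table, and 323 of them reach at least 1 FPKM in one line there. CD80 shares its locus with TIMMDC1 in that table. TIMMDC1 measured 153, 158 and 153 FPKM in LY19Y646F and 89.7, 75.05 and 79.6 FPKM in LY19WT. The kit marks strand, but whether counting used it is not given in the sources used here, and what part reads of TIMMDC1 have in the CD80 value was not tested. With 1 pooled value per line, the CD80 difference has no replicate check.

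CD83 was higher in LY19Y646F in every library. It measured 24.0, 24.5 and 25.7 FPKM in LY19Y646F and 8.46, 11.04 and 9.76 FPKM in LY19WT. The libraries within a line lay close together and the lines did not overlap, as in 49.0% of tested genes. It averaged 24.7 ± 0.858 FPKM in LY19Y646F and 9.76 ± 1.29 FPKM in LY19WT (SD, n = 3 each), a 2.53-fold difference (log2 change 1.26, SE 0.12, limma adjusted p of 0.0011). The authors' deposited table gave 26.0 and 10.6 FPKM for LY19Y646F and LY19WT. CD83 lies on hg19 chromosome 6 from 14117872 to 14137149, although in 4 of the 6 libraries the assembled locus began further upstream.

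ICOSLG varied more between the replicates of a line than between the lines. It measured 25.1, 7.42 and 5.55 FPKM in LY19Y646F replicates 1 to 3, and 35.3, 10.8 and 10.1 FPKM in LY19WT replicates 1 to 3. Replicate 1 was the highest library of both lines, 3.86 times the mean of the other 2 in LY19Y646F and 3.37 times in LY19WT, and the lines overlapped. In LY19WT replicate 1 the row also named DNMT3L, its neighbour on chromosome 21, so that value belongs to both genes. DNMT3L had rows of its own at 2.64 and 5.86 FPKM in the other LY19WT libraries. With merged rows counted for every gene they name, which calls 26.1% of 17294 genes (13.2% higher and 12.9% lower), ICOSLG differed by -0.58 (SE 0.74, limma adjusted p of 0.60). Leaving out 1 library gave differences from -1.18, without LY19Y646F replicate 1, to -0.02, without LY19WT replicate 1. The authors' deposited table, where DNMT3L has its own row, gave ICOSLG 14.3 FPKM in LY19Y646F and 18.4 FPKM in LY19WT.

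**Figure D1:**
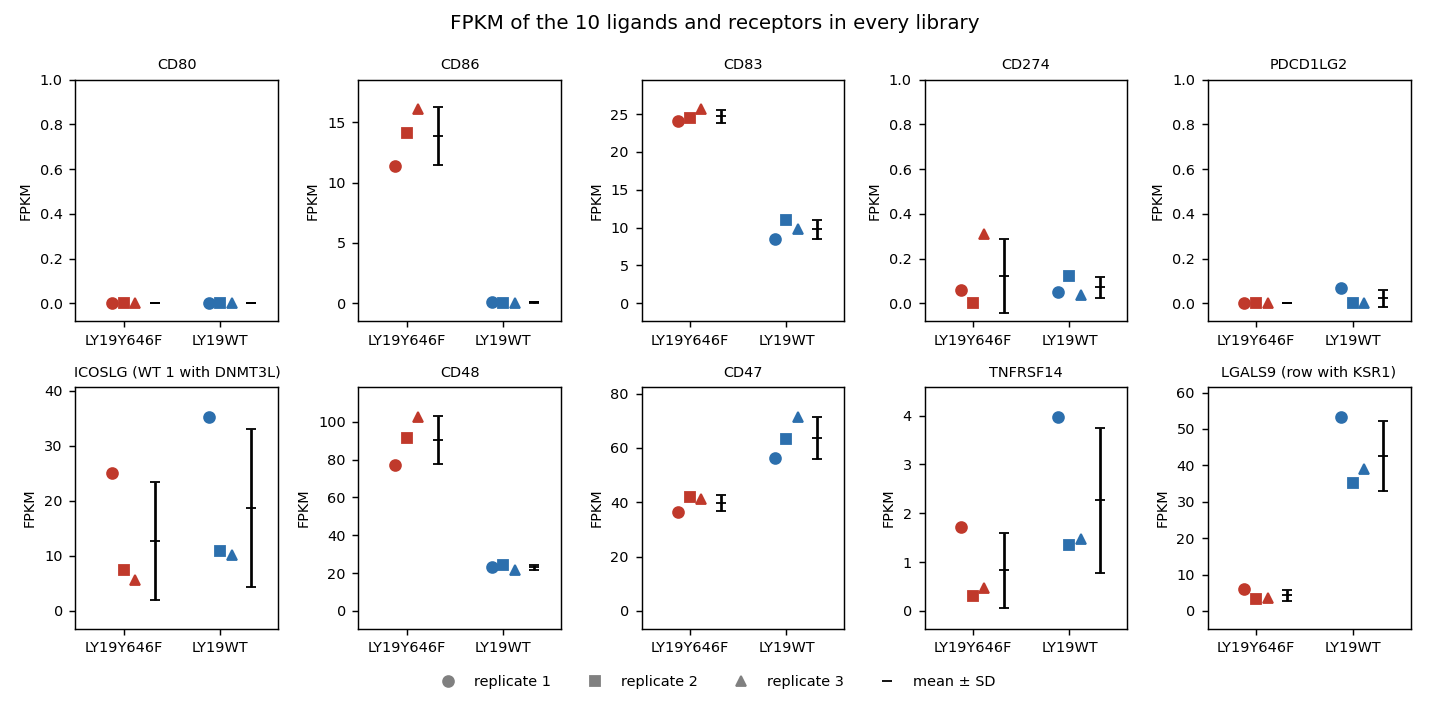
FPKM of each of the 10 genes in the 3 LY19Y646F libraries (left, red) and the 3 LY19WT libraries (right, blue), with the mean and SD of each line. CD86, CD83 and CD48 are higher in every LY19Y646F library, CD47 and the row naming LGALS9 are lower, and replicate 1 is highest in both lines for ICOSLG and TNFRSF14. Libraries of the lines do not overlap for 49.0% of tested genes, and for 44.7% of genes with merged rows counted.

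The ligands of PD-1 were near 0 in both lines. CD274 measured 0.0593, 0 and 0.312 FPKM in LY19Y646F and 0.0509, 0.124 and 0.0377 FPKM in LY19WT. The lines overlapped, and the lower limit of every Cufflinks interval was 0. PDCD1LG2 was listed at 0 in each LY19Y646F library, at 0.0667 FPKM in LY19WT replicate 1 and at 0 in the other LY19WT libraries. With no filter on low values, a fit that calls 18.2% of 23492 genes (9.25% higher and 8.94% lower), the differences were 0.06 for CD274 (SE 0.11, limma adjusted p of 0.72) and -0.03 for PDCD1LG2 (SE 0.03, limma adjusted p of 0.50). The authors' deposited table held no row for CD274 and gave PDCD1LG2 0.305 FPKM in LY19Y646F and 0.144 FPKM in LY19WT. At such levels a difference was not detectable.

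Some genes around CD274 and PDCD1LG2 on chromosome 9 were expressed and others were not. Of 9 listed neighbours, INSL4, RLN1 and MLANA were listed at 0 in every library, and INSL6 and RLN2 averaged at most 0.0113 FPKM in LY19Y646F and were listed at 0 in LY19WT. CD274 (hg19 5450503 to 5470566) and PDCD1LG2 (5510545 to 5571282) stand 39.98 kb apart. PLGRKT, a plasminogen receptor next to CD274, averaged 22.2 ± 4.32 FPKM in LY19Y646F and 11.3 ± 2.23 FPKM in LY19WT (SD, n = 3 each). KIAA1432 averaged 31.5 ± 7.62 and 12.3 ± 1.09 FPKM, and the metallopeptidase gene ERMP1 averaged 14.2 ± 0.950 and 6.33 ± 1.14 FPKM, in LY19Y646F and LY19WT. These 3 were the neighbours tested, and all 3 were higher in LY19Y646F by limma, with adjusted p of 0.021, 0.0077 and 0.0047, where 17.0% of all tested genes were called higher. The PLGRKT call was lost when any 1 of 4 libraries, replicates 2 and 3 of either line, was left out, with adjusted p between 0.060 and 0.071. JAK2, further along the chromosome, shared a row in at least 1 library and was not tested.

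TNFRSF14 was low and also highest in replicate 1. It measured 1.71, 0.311 and 0.467 FPKM in LY19Y646F and 3.98, 1.35 and 1.47 FPKM in LY19WT. The lines overlapped because LY19Y646F replicate 1 stood above LY19WT replicates 2 and 3. Its mean was 0.829 ± 0.766 FPKM in LY19Y646F and 2.27 ± 1.49 FPKM in LY19WT (SD, n = 3 each), and the difference of -0.82 (SE 0.43) did not pass (limma adjusted p of 0.21). In a comparison added after these values were seen, without replicate 1 of both lines, it was -0.80 with a limma adjusted p of 0.014, where 43.1% of all tested genes were called, 21.1% as higher and 21.9% as lower. The authors' deposited table gave 1.06 FPKM in LY19Y646F and 2.95 FPKM in LY19WT. TNFRSF14 lies on hg19 chromosome 1 from 2487078 to 2496821.

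LGALS9 could only be read together with KSR1. In all 6 libraries 1 row named both genes along with 2 non-coding ones, on hg19 chromosome 17 from 25783670 to 26081980. KSR1 encodes a scaffold of the RAF and MEK kinases. That row held 5.99, 3.24 and 3.52 FPKM in LY19Y646F and 53.4, 35.2 and 39.0 FPKM in LY19WT. The lines did not overlap, as in 44.7% of genes with merged rows counted. The row averaged 4.25 ± 1.51 FPKM in LY19Y646F and 42.5 ± 9.61 FPKM in LY19WT (SD, n = 3 each), 10.01-fold lower in LY19Y646F (log2 change -3.07, SE 0.27, limma adjusted p of 0.0012 with merged rows counted, where 12.9% of genes were called lower). Neither gene is in the authors' deposited table, so the share of each in this difference cannot be told apart. LGALS9 also has near-identical copies in the genome among which reads can be split.

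CD48 and CD47 were the most abundant of the genes with a row of their own, and they moved in opposite directions. CD48 measured 77.2, 91.3 and 102.8 FPKM in LY19Y646F and 23.4, 24.3 and 21.7 FPKM in LY19WT. Each LY19Y646F library was more than 3 times as high as any LY19WT library. CD48 averaged 90.4 ± 12.8 FPKM in LY19Y646F and 23.1 ± 1.29 FPKM in LY19WT (SD, n = 3 each; log2 change 1.91, SE 0.13, limma adjusted p of 0.00031). The authors' deposited table gave 83.5 and 21.7 FPKM for LY19Y646F and LY19WT. CD48 lies on hg19 chromosome 1 from 160648536 to 160681641, among the SLAM receptor genes to which it belongs.

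CD47 measured 36.4, 41.8 and 41.1 FPKM in LY19Y646F and 56.3, 63.2 and 71.5 FPKM in LY19WT. The lines did not overlap, as was true of 49.0% of tested genes. CD47 averaged 39.8 ± 2.97 FPKM in LY19Y646F and 63.7 ± 7.64 FPKM in LY19WT (SD, n = 3 each), and CD47 was lower by 0.66 on the log2 scale (log2 change -0.66, SE 0.12, limma adjusted p of 0.012). This is a small change here, since 48.0% of tested genes had a larger absolute one. The authors' deposited table gave CD47 70.4 FPKM in LY19Y646F and 112.7 FPKM in LY19WT. Both values are 1.77 times the mean of the library tables, so the level of CD47 depends on the table while the ratio of the lines does not. CD47 lies on hg19 chromosome 3 from 107762145 to 107809872.

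**Figure D2:**
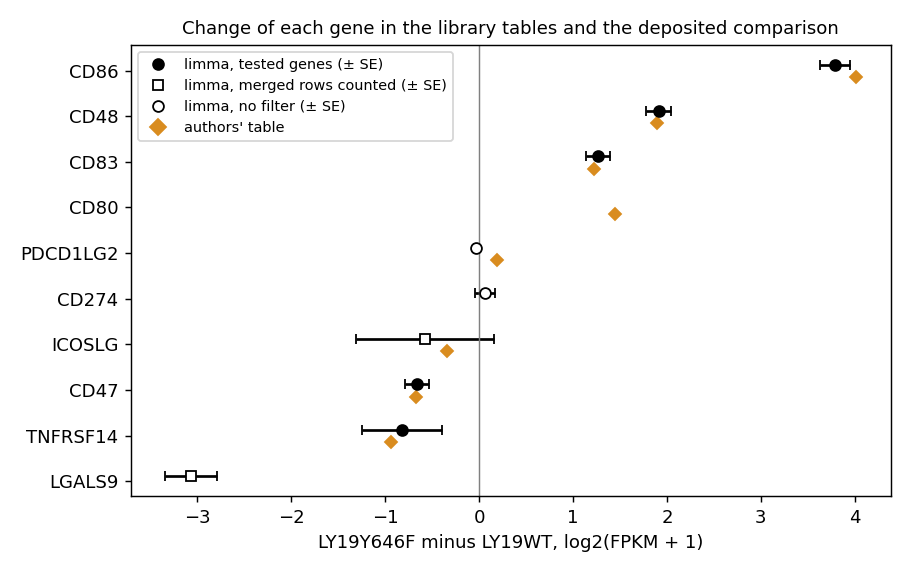
Log2 change of each gene, LY19Y646F minus LY19WT, on the log2(FPKM + 1) scale, with the SE from limma (filled circles for the 5 tested genes, open squares with merged rows counted, open circles without the filter on low values), and the change recomputed from the authors' deposited table (diamonds). CD80 has only a diamond at 1.45, and CD274 and LGALS9 have none.

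Shares of the set differed between the lines. FPKM relates fragments to transcript length, so levels of these genes can be added and compared within a library. The sums also hold KSR1 in every library and DNMT3L in LY19WT replicate 1. In the authors' deposited table CD47 stood 1.77 times higher in both lines and CD80 stood above 0. The shares and the order of the levels therefore depend on the table. The rows naming the 10 genes, each counted once, summed to 182, 183 and 195 FPKM in LY19Y646F and 181, 146 and 154 FPKM in LY19WT. Each LY19Y646F library was above every LY19WT library, although LY19WT replicate 1 came within 1 FPKM. The exact two-sided permutation p was 0.10, the smallest that 3 libraries against 3 can give. With median-ratio scaling of the libraries the difference of the means was 18.05 FPKM, against 26.4 FPKM as deposited, and the exact p was 0.30. CD48 held 42.5% to 52.6% of that sum in LY19Y646F and 12.9% to 16.6% in LY19WT. CD47 held 20.0% to 22.9% in LY19Y646F and 31.1% to 46.5% in LY19WT. The row naming LGALS9 held 1.77% to 3.29% in LY19Y646F and 24.1% to 29.5% in LY19WT. CD86 held 6.24% to 8.24% in LY19Y646F and at most 0.0613% in LY19WT.

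In LY19Y646F the order of the mean levels was CD48, CD47, CD83, CD86, ICOSLG, the LGALS9 row, TNFRSF14 and CD274, with CD80 and PDCD1LG2 listed at 0. CD86 and ICOSLG overlapped between libraries there, and the LGALS9 row overlapped with ICOSLG in its highest library. ICOSLG in replicate 1 also stood above CD83 in replicates 1 and 2. The lowest TNFRSF14 library and the highest CD274 library also overlapped, at 0.311 and 0.312 FPKM. In LY19WT the order was CD47, the LGALS9 row, CD48, ICOSLG, CD83, TNFRSF14, CD274, CD86 and PDCD1LG2, with CD80 listed at 0. ICOSLG overlapped with the LGALS9 row, CD48 and CD83 there, and the values of the last 3 above 0 overlapped with each other.

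**Figure D3:**
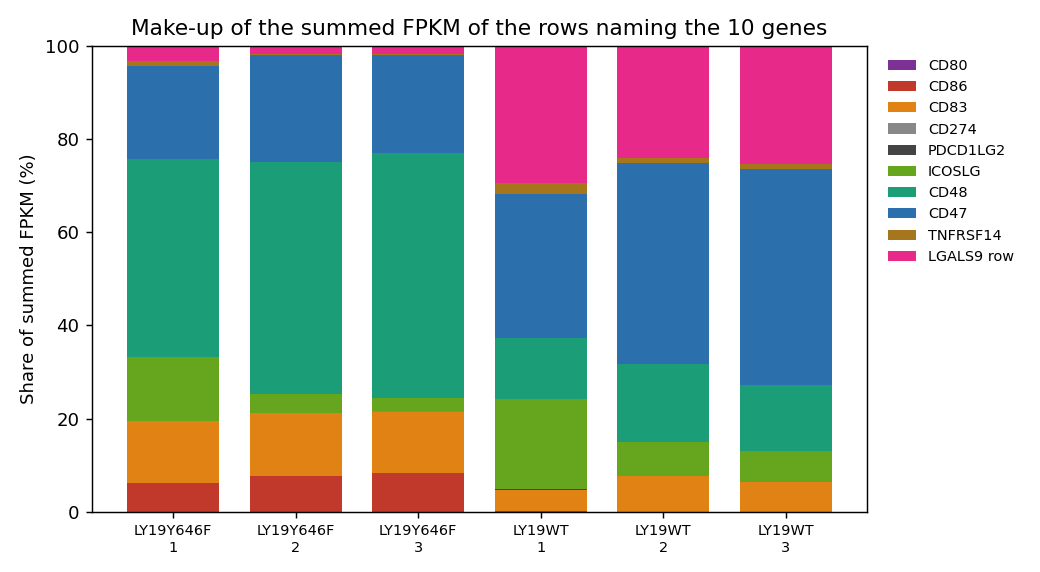
Share in percent of the summed FPKM of the rows naming the 10 genes, for each LY19Y646F library (left) and each LY19WT library (right). CD48 takes 42.5% to 52.6% in LY19Y646F, while CD47 and the row naming LGALS9, which also holds KSR1, take most of the sum in LY19WT.

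Other ligands that T and NK cells read were split. Of 30 listed, 6 could be tested, since the rest were low or left out, and 2 were higher and 2 lower in LY19Y646F, with a median log2 change of 0.31 over the 6. Over all tested genes 17.0% were higher and 16.8% lower, which is also the background for the lists that follow. CD58, a ligand of CD2 like CD48, measured 2.38, 1.29 and 1.11 FPKM in LY19Y646F and 39.3, 31.9 and 33.2 FPKM in LY19WT. CD58 thus fell (log2 change -3.81, SE 0.22, limma adjusted p of 0.00015) where CD48 rose, and the authors' deposited table gave it 1.16 and 46.4 FPKM in LY19Y646F and LY19WT. TNFSF9, the ligand of the activating receptor 4-1BB, measured 9.20, 6.46 and 5.20 FPKM in LY19Y646F and 0.471, 0.699 and 0.524 FPKM in LY19WT (log2 change 2.32, SE 0.22, limma adjusted p of 0.00096). CD40, the B cell receptor for T cell help, also rose (log2 change 3.36, limma adjusted p of 0.00023). ULBP2, a ligand of the NK receptor NKG2D, averaged 0.417 ± 0.160 and 1.09 ± 0.121 FPKM in LY19Y646F and LY19WT (SD, n = 3 each), with a limma adjusted p of 0.036 that was above 0.05 under 7 alternatives. ULBP3, of the same family, averaged 2.88 ± 0.480 FPKM in LY19Y646F and 1.43 ± 0.798 FPKM in LY19WT and did not pass (limma adjusted p of 0.099). ULBP3 did pass with quantile scaling, with library weights, without LY19WT replicate 1 and without replicate 1 of both lines, with limma adjusted p from 0.016 to 0.043. With merged rows counted, 13.2% of 17294 genes were called higher and 12.9% lower. In that fit HLA-G was higher (5.14, limma adjusted p of 0.0037). BTN3A1, BTN3A2 and BTN3A3 (-1.44, limma adjusted p of 0.0017) and BTN2A1 and BTN2A2 (-1.11, limma adjusted p of 0.031) were lower. LGALS1, HLA-E, MICA and MICB were not called. These genes were named after their values were seen, and their rows can hold RNA of other genes.

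The SLAM genes, to whose family CD48 belongs, gave 2 higher and 0 lower of 4 tested, beside 17.0% and 16.8% of all tested genes, with a median log2 change of 0.68. SLAMF6, a receptor that binds itself on a neighbouring cell, measured 25.1, 32.6 and 33.9 FPKM in LY19Y646F and 3.47, 3.85 and 4.04 FPKM in LY19WT (log2 change 2.71, SE 0.15, limma adjusted p of 0.00014). CD84, also self-binding, averaged 7.39 ± 0.897 and 2.95 ± 0.235 FPKM in LY19Y646F and LY19WT (SD, n = 3 each; limma adjusted p of 0.0027). LY9 averaged 1.51 ± 0.537 FPKM in LY19Y646F and 1.06 ± 0.265 FPKM in LY19WT. SLAMF1 averaged 0.355 ± 0.0491 FPKM in LY19Y646F and 0.709 ± 0.667 FPKM in LY19WT. Neither passed (limma adjusted p of 0.41 and 0.60). LY9 did with library weights (0.55, limma adjusted p of 0.028), and SLAMF1 did without LY19WT replicate 1 (-0.60, limma adjusted p of 0.049). Of 20 receptors for these ligands 1 was tested: RGMB, which also binds PDCD1LG2, averaged 2.42 ± 0.109 FPKM in LY19Y646F and 4.59 ± 0.337 FPKM in LY19WT (limma adjusted p of 0.0072, and 0.058 with quantile scaling). CD28 averaged 0.0671 ± 0.0118 FPKM in LY19Y646F and was listed at 0 in LY19WT, and CTLA4, ICOS, CD160 and SIRPA were listed at 0 in all libraries. With merged rows counted, 5 of the 20 receptors averaged at least 0.5 FPKM in LY19Y646F and 2 in LY19WT. The LY19Y646F means of CD200R1 and TNFRSF4 rest on a single library each. HAVCR2, the gene of TIM-3, averaged 5.94 ± 0.774 and 6.73 ± 0.755 FPKM in LY19Y646F and LY19WT. The row rules left HAVCR2 out of the main fit, since its name shared a row or stood on several chromosomes. Its values can therefore hold RNA of other genes. HAVCR2, named after its values were seen, was not called with merged rows counted (limma adjusted p of 0.53).

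Regulators of these ligands went both ways. Of 20 listed, 13 were tested, 1 was higher and 5 were lower, beside 17.0% and 16.8% of all tested genes, with a median log2 change of -0.73. The lower ones were IFNGR1, IRF1, NFKB1, STAT3 and IRF2, with log2 changes from -2.64 to -0.96. IRF1, the factor through which interferon gamma induces CD274, averaged 3.78 ± 0.802 FPKM in LY19Y646F and 28.7 ± 4.18 FPKM in LY19WT (SD, n = 3 each). NFKB1 averaged 16.1 ± 1.35 and 42.6 ± 0.921 FPKM in LY19Y646F and LY19WT (limma adjusted p of 0.00038). The IRF2 call was lost without LY19WT replicate 2 or 3, with adjusted p of 0.063 and 0.061 by limma. REL, the NF-kB subunit c-Rel, was the one that rose, to 11.5, 12.5 and 13.8 FPKM in LY19Y646F, against 4.09, 3.77 and 7.77 FPKM in LY19WT (log2 change 1.18, SE 0.27, limma adjusted p of 0.021). IFNGR2, the other chain of the interferon gamma receptor, was left out of that fit because its name also stands on an alternative contig. IFNGR2 measured 27.5, 48.4 and 36.3 FPKM in LY19Y646F and was listed at 0 in every LY19WT library, while the authors' deposited table gave it 35.0 FPKM in LY19Y646F and 2.19 FPKM in LY19WT. With such rows counted IFNGR2 was called higher (limma adjusted p of 0.00014), where IFNGR1 was lower. In that fit 13.2% of 17294 genes were called higher. The IFNGR2 call rests on LY19WT values listed at 0, where the authors' deposited table holds 2.19 FPKM. REL, IFNGR2, MARCH1 and MARCH8 were named after their values were seen, and were not among the genes followed under the alternatives. MARCH1, a ubiquitin ligase that removes CD86 from the surface, averaged 2.198 ± 0.393 FPKM in LY19Y646F and 2.85 ± 0.555 FPKM in LY19WT and did not pass (limma adjusted p of 0.31). MARCH8, of the same list, was left out of that fit by the row rules, so its values can hold RNA of other genes. It measured 8.18, 7.16 and 7.49 FPKM in LY19Y646F and 4.33, 4.20 and 4.03 FPKM in LY19WT. With merged rows counted MARCH8 was called higher (log2 change 0.73, limma adjusted p of 0.016), as were 13.2% of genes.

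**Figure D4:**
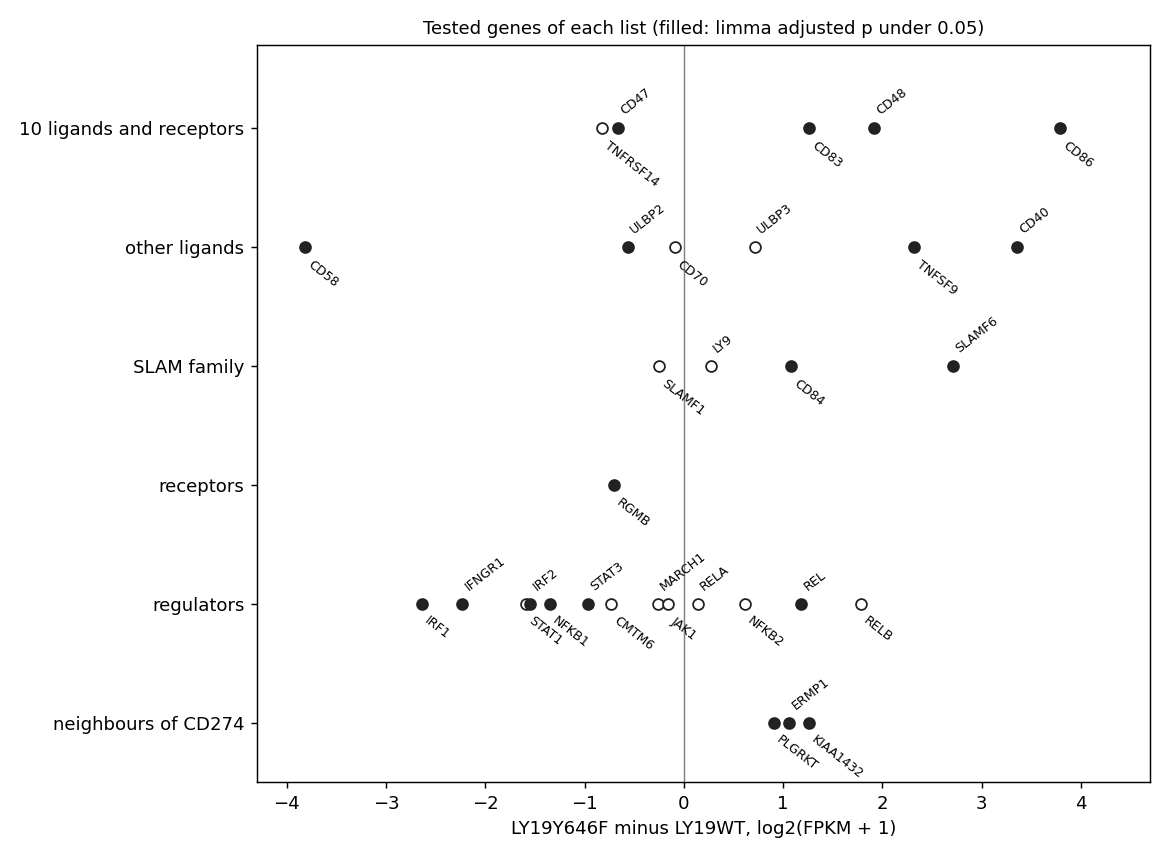
Log2 change, LY19Y646F minus LY19WT, of every tested gene of the 10 and of the 5 lists of related genes (cell type markers are not drawn) on the log2(FPKM + 1) scale, filled where the limma adjusted p is under 0.05. CD58 at -3.81 and CD86 at 3.79 are the extremes of the genes drawn. Of 13 regulators 5 are called lower and 1 higher, beside 16.8% and 17.0% of all tested genes.

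The genes whose library values ran most like CD86, by Euclidean distance of centred log2(FPKM + 1) over the 6 libraries, were LGMN, SNTB1 and NUGGC, at distances of 0.14, 0.25 and 0.28. LGMN measured 10.4, 14.0 and 15.7 FPKM in LY19Y646F, against 0, 0.0106 and 0.0607 FPKM in LY19WT. For TNFRSF14 the closest were XYLT2, ZNF646 and SH3BP5L, at 0.27, 0.28 and 0.30. XYLT2 measured 3.45, 1.13 and 1.03 FPKM in LY19Y646F and 5.997, 2.47 and 2.32 FPKM in LY19WT, so that it too was highest in replicate 1 of both lines. This likeness rests on 6 libraries of 2 lines.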

How the data were processed

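Single-end reads of 85 nucleotides came from a stranded mRNA kit, per the labels' protocols. STAR 2.5.3a, Cufflinks 2.2.1 and Cuffdiff 2.2.1 were used on hg19, per the submitters' processing notes. The authors deposited FPKM per gene and library with Cufflinks intervals, per the file headers, and a Cuffdiff table of pooled FPKM per line with a log2 fold change and no p-value. Loci were assembled separately in each library, so a gene can share a row in one library only. Read totals are not in the tables, so depth is unknown and no detection limit is given. Summed FPKM ran from 806102 to 1020941, and the 10 highest rows held 27.5% of it in LY19WT replicate 3 and 5.71% to 9.38% elsewhere. Whether those rows shift the other FPKM of that library was not tested.

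A row counted for a gene that was its only protein-coding name (gene types from GENCODE, symbols only). Non-coding names had to stand alone. Genes sharing rows, found on several chromosomes or with a failed row were left out, 11217 symbols in all. Genes averaging at least 0.5 FPKM were tested with limma 3.58.1 in R 4.3.3 on log2(FPKM + 1) (trend, two-sided, Benjamini-Hochberg, threshold 0.05, LY19Y646F minus LY19WT), a fit tested on simulated data. Permutation tests were exact. Python 3.11.15, pandas 2.3.3, numpy 2.4.6 and matplotlib 3.10.9 were used. The replicates may share a culture, so p-values measure only the spread between libraries.

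The members and lists were chosen with earlier results of these data known. Named genes are the 10 members, up to 5 tested genes with the smallest adjusted p from each list, the tested neighbours of CD274, and 3 genes most like CD86 and like TNFRSF14. Of 8 B lineage markers 7 were read, and the other was not analysed here. Alternatives were another pseudocount, filters, scalings, library weights, row rules, a replicate block and leaving out each library.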

Additional observations from a re-analysis of the deposited data

Results flagged for a closer look

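Both entries here were marked because the authors' deposited table holds a value in LY19Y646F above that in LY19WT for a gene that the library tables could not test. CD80 stands at 4.36 FPKM in LY19Y646F and 0.965 FPKM in LY19WT in that authors' deposited table, while each library table lists it at 0. Unnamed assembled rows overlapped CD80 in every library, with highest values of 0.342, 0.612 and 0.826 FPKM in LY19Y646F and 1.09, 1.40 and 11.3 FPKM in LY19WT. PDCD1LG2 stands at 0.305 FPKM in LY19Y646F and 0.144 FPKM in LY19WT in the authors' deposited table. Its row is 1 of 3 with the same locus there, and what part reads of the other genes have in its value was not tested. Neither difference was tested, since that table has 1 value per line.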

How the results depend on the processing

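CD86, CD83, CD48 and CD47 kept their direction and their call under all 17 alternatives, with log2 changes of 3.68 to 6.43, 1.17 to 1.35, 1.81 to 2.03 and -0.77 to -0.58. LGALS9 with KSR1 kept its call in 8 of 8 fits with merged rows counted (-3.29 to -2.90), and ICOSLG was called in 0 of 8 (adjusted p of 0.058 with the block). TNFRSF14 was called with the replicate block (-0.82, adjusted p of 0.020) and with library weights (-0.88, adjusted p of 0.024). Leaving out a library gave -1.15 to -0.47 without a call, and leaving out replicate 1 of both lines, added after the values were seen, gave -0.80 with one. Weights raised the calls over all genes to 5528, against 3433. The labels do not say that the numbers pair the lines. Deviations of same-numbered libraries correlated at 0.27, 0.095 and 0.14, and those of different-numbered ones at -0.18 to 0.093. LY19Y646F replicate 2 thus matched LY19WT replicates 2 and 3 about alike, at 0.095 and 0.093. The block, with 3734 calls, is therefore a hint only. The log ratio of PDCD1LG2 to CD274 differed by -0.09 (exact permutation p of 0.60) and reversed to 0.025 without LY19Y646F replicate 3, with -0.171 as the lowest value when a library was left out. That of CD86 to CD80 is CD86 alone, since CD80 is listed at 0. SLAMF1 reversed to 0.013 without LY19WT replicate 2, and ranged down to -0.595 when a library was left out. The 24 other genes named by rule gave 401 values under alternatives, of which 371 had the same direction and call. Genes named after their values were seen, such as REL, IFNGR2, MARCH8 and HAVCR2, are not among them. The cause of these shifts was not tested. Scaling moved the median change of all genes to between -0.09 and 0.05.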

Other observations

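Replicate 1 stood apart in both lines for more genes than ICOSLG and TNFRSF14. Of 10163 tested genes, 357 (3.51%) were at least 1 log2 unit, on the log2(FPKM + 1) scale, above both other libraries in replicate 1 of LY19Y646F and also in replicate 1 of LY19WT. The same count was 26 for replicate 2 and 24 for replicate 3. In the opposite direction 67 genes were that far below both other libraries in replicate 1 of both lines. The labels give no batch or date for the replicates.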
